A study of Drosophila melanogaster with 6 samples.

Results

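The ELAV family of RNA-binding protein genes of the fly, *elav*, *fne* and *Rbp9*, was examined in RNA sequencing of whole female heads. The members were taken by their FlyBase symbols, which picked 3 of the 17559 genes counted. No measured value entered that rule, although the members were chosen with earlier results of these data known. The 6 libraries are the driver controls of a study that knocked down fly homologs of 16p12.1 deletion genes in the nervous system, and whose knockdown samples are not analysed here. The Dicer2 25C control group (Dicer2 25C heads, n = 3) carried 1 copy of UAS-Dicer2, a transgene for an RNA interference enzyme, and was reared at 25°C. The RT control group (RT heads, n = 3) lacked that transgene and was reared at room temperature. Flies of both groups had 1 copy of Elav-GAL4 on an X chromosome with the w[1118] allele over a second w[1118] chromosome, came from crosses to the VDRC control stock v60000, and had no RNAi construct. Each replicate was a pool of 35 to 40 heads. *UAS-Dicer2*, rearing temperature and the driver stock differ together between the groups and cannot be told apart.

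ELAV family proteins bind U-rich stretches of RNA through RNA recognition motifs and are related to the Hu proteins of vertebrates. In flies ELAV is a nuclear protein found in neurons throughout life, where it directs alternative splicing and the use of distant 3′ ends, and its regulatory sequences are the source of the *Elav-GAL4* driver, which turns on UAS transgenes in neurons. FNE is mostly cytoplasmic and can take over nuclear functions of ELAV when ELAV is missing. RBP9 is made in the nervous system and in the ovary, where it is needed for egg development.

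The libraries held between 18651266 and 25183878 reads on genes in Dicer2 25C heads and between 33898008 and 42487803 in RT heads. Replicate 1 of Dicer2 25C heads had 69361668 alignments that were not unique, against 7164088 to 8454145 in the other 5 libraries. Replicate 1 of RT heads stood apart from its group, with a chi-square per degree of freedom of 143 and 137 against the other RT libraries, which differed from each other by 32.5. Replicate 3 of Dicer2 25C heads also stood apart, at 81.0 and 50.4 against replicates 1 and 2, which differed from each other by 30.1. All these values are far above the sampling noise, and all libraries were kept as separate replicates. Levels are given as CPM, the reads on a gene scaled to a fixed library total, with the totals adjusted by edgeR's TMM method. *Hsp26*, a heat shock gene, was at 1058 CPM in replicate 3 of RT heads and at 154 CPM or less in the other libraries. Each comparison was therefore also fitted without each library in turn. *Dcr-2*, the gene that the *UAS-Dicer2* transgene raises, was at 572 ± 57.6 CPM in Dicer2 25C heads and 58.1 ± 3.03 CPM in RT heads (SD, n = 3 each), which fits the labels.

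*elav* (FBgn0260400) lies on chromosome X from 509235 to 523226, minus strand, in the BDGP6.54 annotation. Its 4 annotated transcripts have coding lengths of 1437 to 1449 bases but 3′ untranslated regions between 556 and 8557 bases long. The exons of all its transcripts together cover 10715 bases, and the longest coding length is 13.5% of that. *fne* (FBgn0086675) is also X-linked, from 12917477 to 12950417 on the plus strand. Its 11 transcripts have 3′ untranslated regions of 1202 to 4927 bases, and its exons cover 9561 bases. *Rbp9* (FBgn0010263) lies on chromosome 2L from 2954762 to 2968434, plus strand, with 9 transcripts, 3′ untranslated regions of 730 to 5048 bases and 8054 bases of exon. The deposited tables hold 1 count per gene, so the long and short forms of a member were added together. Other genes overlap the members only in part. *arg*, on the opposite strand, shares 673 bases (6.28%) of the *elav* exons and was at 3.36 ± 0.65 CPM in Dicer2 25C heads and 4.46 ± 0.332 CPM in RT heads. *Ts* shares 142 bases with *Rbp9*, again on the opposite strand, and was at 0.35 ± 0.179 CPM in Dicer2 25C heads and 0.744 ± 0.311 CPM in RT heads (SD, n = 3 each). The noncoding gene *lncRNA:enrr* shares 27.9% of the *elav* exons on the same strand in this annotation. It has no row in the count files, so any reads from it on those bases cannot be separated from those of *elav*. The strand setting of the read counting is not given in the sources used here, so reads from overlapping exons cannot be assigned with certainty.

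All 3 members were well expressed in the heads of both groups, with *Rbp9* the highest by a wide margin. *Rbp9* was 1.25 times as high in Dicer2 25C heads as in RT heads, *fne* likewise, and *elav* 1.07 times as high, but none of these differences passed the test across all genes.

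*elav*, a common marker of fly neurons, was at 206, 184 and 146 CPM in replicates 1, 2 and 3 of Dicer2 25C heads, against 169, 174 and 159 CPM in RT heads. The RT libraries lay inside the range of the Dicer2 25C libraries, so the groups overlapped. The means were 179 ± 30.4 CPM in Dicer2 25C heads and 167 ± 7.59 CPM in RT heads (SD, n = 3 each). The log2 fold change of Dicer2 25C heads over RT heads was 0.10 (standard error 0.13), with a p of 0.65 after Benjamini-Hochberg adjustment over all genes tested by quasi-likelihood in edgeR. Without replicate 1 of Dicer2 25C heads it was -0.016 (adjusted p = 0.95), and without replicate 3 of that group it was 0.22 (adjusted p = 0.096), so the direction rested on single libraries.

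*fne*, a neuronal paralog of *elav*, was at 299.6, 291 and 229.6 CPM in replicates 1, 2 and 3 of Dicer2 25C heads, against 225, 215 and 217 CPM in RT heads. Every Dicer2 25C library was above every RT library, although the lowest of the first group exceeded the highest of the second only by a ratio of 1.02. The means were 273 ± 38.2 CPM in Dicer2 25C heads and 219 ± 5.09 CPM in RT heads (SD, n = 3 each), a log2 fold change of 0.32 (standard error 0.11). This difference was at an unadjusted p of 0.026 and an adjusted p of 0.11 by quasi-likelihood in edgeR. Without replicate 3 of Dicer2 25C heads the log2 fold change was 0.43 and passed the test (adjusted p = 0.010). In that fit 1944 of 10449 genes tested passed, against 1030 of 10187 with all libraries. Over all fits that left out 1 library it ran from 0.25 to 0.43.

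*Rbp9*, the member with a known role in the ovary as well as in neurons, was at 965, 886 and 796 CPM in replicates 1, 2 and 3 of Dicer2 25C heads, against 688, 716 and 715 CPM in RT heads. The groups did not overlap, and the lowest Dicer2 25C library was 1.11 times the highest RT library. The means were 882 ± 84.8 CPM in Dicer2 25C heads and 706 ± 15.5 CPM in RT heads (SD, n = 3 each), a log2 fold change of 0.32 (standard error 0.10). The difference did not pass the quasi-likelihood test in edgeR (adjusted p = 0.085, unadjusted p = 0.016). It did pass with DESeq2 (adjusted p = 0.014) and without replicate 3 of Dicer2 25C heads (log2 fold change 0.39, adjusted p = 0.021 in edgeR). More genes passed in both fits, 1889 with DESeq2 and 1944 without that replicate, against 1030 in the main fit. Over all fits that left out 1 library the log2 fold change ran from 0.25 to 0.39.

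**Figure D1:**
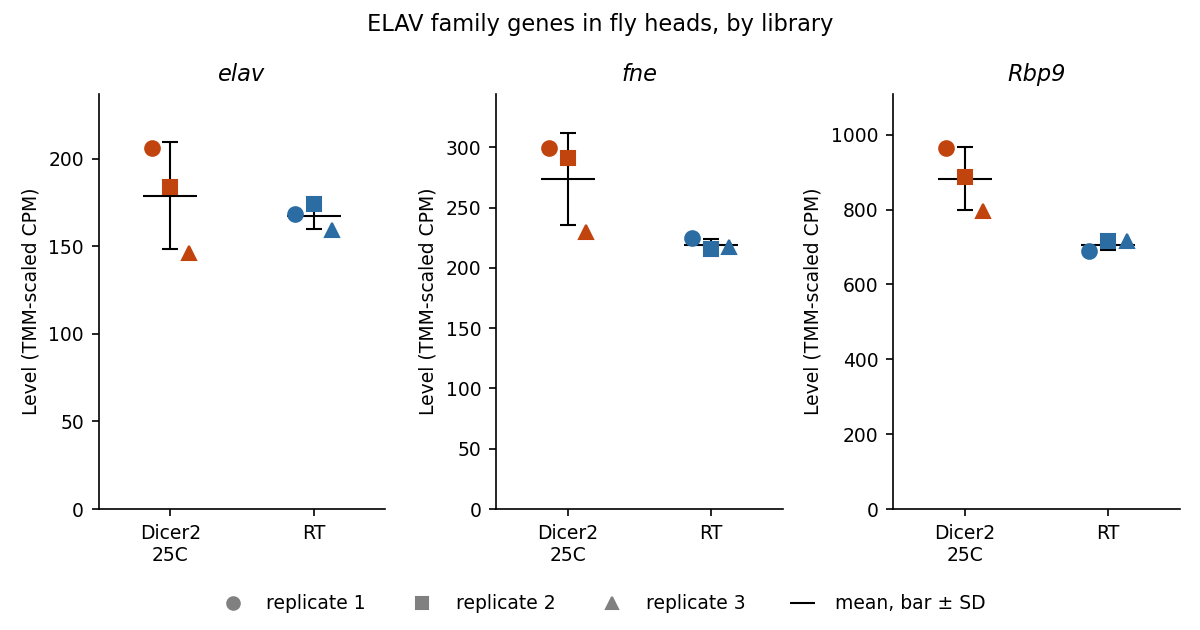
TMM-scaled CPM of *elav*, *fne* and *Rbp9* in each library, with Dicer2 25C heads left of RT heads, symbols for the replicates and bars for the mean ± SD (n = 3). Replicate 1 is the highest and replicate 3 the lowest Dicer2 25C library for each gene, and the groups overlap only for *elav*.

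Of the 3 members, 0 passed an adjusted p under 0.05 by quasi-likelihood in edgeR. At an unadjusted p under 0.05 there were 2 members, *fne* and *Rbp9*, DESeq2 gave 1, *Rbp9*, and edgeR's likelihood ratio test gave 0. Of all genes tested, 30.7% had an unadjusted p under 0.05, 18.6% were called by DESeq2 and 13.4% by the likelihood ratio test. Over all 10187 genes tested, 10.1% passed an adjusted p under 0.05, 4.83% passed it with a higher level and 5.28% with a lower level in Dicer2 25C heads, and 2.82% also changed by an absolute log2 fold change above 1. For 18% of the genes tested, all Dicer2 25C libraries were above all RT libraries, as they were for *fne* and *Rbp9*. A log2 fold change above that of *Rbp9* was seen at 14.1% of the genes tested and above that of *elav* at 35.7%. The share of calls rested on single libraries: the 287 genes past both thresholds became between 33 and 438 when 1 library was left out, the lowest without replicate 2 and the highest without replicate 3 of Dicer2 25C heads. Without replicate 1 of Dicer2 25C heads there were 79, without replicate 2 of RT heads 96 and without replicate 3 of RT heads 54. Leaving out replicate 1 of RT heads, which stood apart from its group, moved the count little, to 260.

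**Figure D2:**
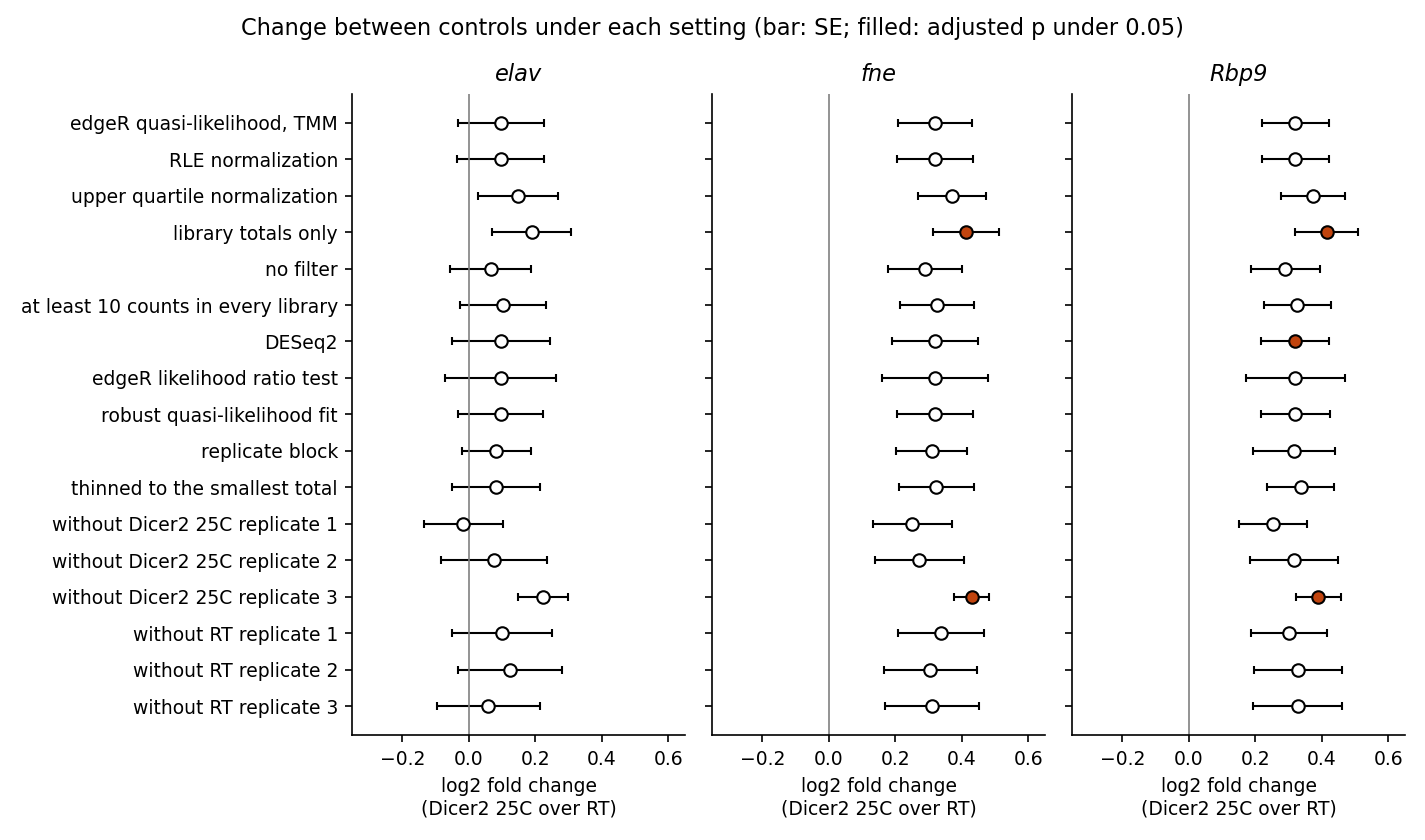
Log2 fold change of each member, Dicer2 25C over RT heads, with its standard error under the quasi-likelihood fit with TMM scaling and 16 other settings, filled where the adjusted p was under 0.05 (2 settings for *fne* and 3 for *Rbp9*). *fne* and *Rbp9* lie right of 0 under every setting drawn, *elav* crosses 0 without replicate 1 of Dicer2 25C heads, and *elav* is filled under no setting.

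The replicates of RT heads were closer to each other than those of Dicer2 25C heads for each member. The coefficient of variation, the SD as a percent of the mean, was 17.0% in Dicer2 25C heads and 4.54% in RT heads for *elav*, 14.0% in Dicer2 25C heads and 2.32% in RT heads for *fne*, and 9.61% in Dicer2 25C heads and 2.19% in RT heads for *Rbp9*. The median over all genes tested was 9.39% in Dicer2 25C heads and 7.83% in RT heads. Thus the members varied at or above the typical gene in the first group and below it in the second. The 95% Poisson interval of each value had a half-width of at most 3.36% of the value, which covers counting error only and was smaller than the spread of the Dicer2 25C libraries.

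The levels of the members were set in order after dividing CPM by the length of each gene's exons in kilobases. *Rbp9* was the highest, at 109.6 ± 10.5 CPM per kb of exon in Dicer2 25C heads and 87.7 ± 1.92 in RT heads. *fne* followed with 28.6 ± 3.99 in Dicer2 25C heads and 22.9 ± 0.533 in RT heads, and *elav* with 16.7 ± 2.84 in Dicer2 25C heads and 15.6 ± 0.709 CPM per kb of exon in RT heads (SD, n = 3 each). With these lengths the same order held in each of the 6 libraries, and each pair of neighbours differed at p = 0.03125 (exact sign-flip permutation test over 6 libraries, two-sided, the smallest p this design can give, and the same after adjustment over the 3 pairs). This p shows only that the order was the same in every library at the lengths used. Among the genes tested whose length is annotated, 93.1% were lower than *Rbp9* on this scale, 72.5% were lower than *fne* and 59.0% were lower than *elav*.

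The place of *elav* in this order depended on the length used. Its shortest transcript has 2248 bases against 10715 for all its exons, while the shortest of *fne* has 3937 and that of *Rbp9* 3187. Per kb of shortest transcript, *elav* was at 79.6 ± 13.5 in Dicer2 25C heads and 74.4 ± 3.38 in RT heads, above *fne* at 69.4 ± 9.69 in Dicer2 25C heads and 55.6 ± 1.29 CPM per kb in RT heads (SD, n = 3 each). *Rbp9* stayed the highest, at 277 ± 26.6 in Dicer2 25C heads and 222 ± 4.85 CPM per kb in RT heads. Which length fits depends on how much of the *elav* RNA carries the long 3′ untranslated region, which gene counts do not show. The sign-flip test takes the lengths as given. Per kb of shortest transcript it gave the opposite order of *elav* and *fne* the same p of 0.03125. *Rbp9* led on both scales, and the order of *elav* and *fne* was not settled by these counts.

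**Figure D3:**
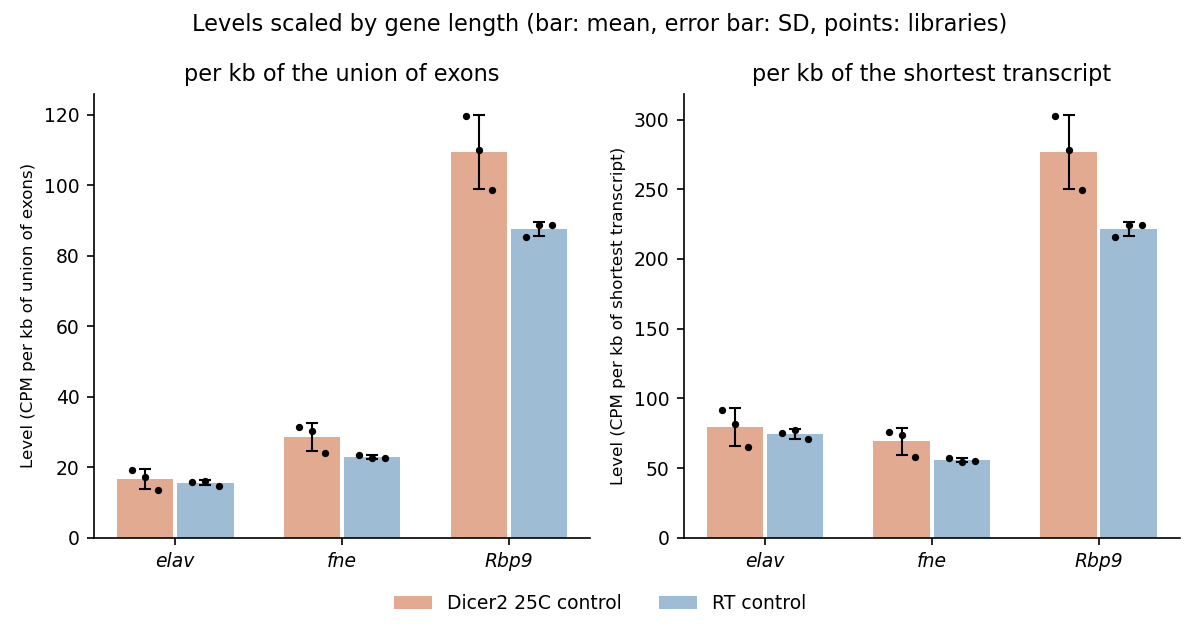
Mean level of each member in CPM per kb, by the union of exons (left) and by the shortest annotated transcript (right), with SD bars and 1 point per library (n = 3). *Rbp9* leads in both panels, while *elav* is below *fne* on the left and above it on the right.

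As a share of the family's summed CPM per kb of exon, *Rbp9* made up 69.8% to 72.4% in Dicer2 25C heads and 68.5% to 70.3% in RT heads. *fne* made up 17.6% to 19.3% in Dicer2 25C heads and 17.7% to 18.9% in RT heads. *elav* made up 9.99% to 11.3% in Dicer2 25C heads and 11.8% to 12.7% in RT heads. It was the only member whose shares did not overlap between the groups on this scale. Shares of a single total depend on each other and restate the ratios between members. How often such shares separate for other genes was not determined. By CPM, 18% of all genes tested were higher in all Dicer2 25C libraries than in all RT libraries. Per kb of shortest transcript, the shares of *Rbp9* did not overlap either, at 64.09% to 66.94% in Dicer2 25C heads and 62.05% to 64.05% in RT heads. These ranges were separated only by 64.05% and 64.09%.

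Ratios between members in the same library do not depend on how libraries are scaled to each other. The ratio of *fne* to *elav*, per kb of exon, was 1.63, 1.77 and 1.76 in replicates 1, 2 and 3 of Dicer2 25C heads, against 1.49, 1.39 and 1.53 in RT heads. Every Dicer2 25C library was above every RT library. The mean difference was 0.23 on the log2 scale (exact permutation test, two-sided, p = 0.1, the smallest that 3 against 3 libraries can give, and 0.2 after Benjamini-Hochberg adjustment over 6 ratios). The ratio of *Rbp9* to *elav* was 6.22, 6.40 and 7.24 in Dicer2 25C heads, against 5.43, 5.46 and 5.98 in RT heads. These groups did not overlap either, with a log2 difference of 0.23 and the same exact p of 0.1 (adjusted 0.2). Both ratios are taken to *elav*, so they are not separate observations. How often ratios of other genes separate the groups was not determined. The ratio of *fne* to *Rbp9* was similar between the groups, at 0.261, 0.277 and 0.243 in Dicer2 25C heads and 0.275, 0.254 and 0.256 in RT heads. These groups overlapped, with a log2 difference of -0.0071 (exact permutation p = 1). The sign of this difference changed when replicate 3 of Dicer2 25C heads (0.042) or replicate 1 of RT heads (0.030) was left out.

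The members were also set against other neuronal transcripts. A list of synaptic and pan-neuronal genes, of which 11 of 12 were matched, summed to 11834, 10807 and 8016 CPM in replicates 1, 2 and 3 of Dicer2 25C heads and to 8676, 8240 and 8126 CPM in RT heads. Thus the sum was highest in replicate 1 and lowest in replicate 3 of Dicer2 25C heads, the order in which each member stood there, and in replicate 3 it was below every RT library. *elav* amounted to 1.74%, 1.70% and 1.82% of this sum in Dicer2 25C heads, against 1.94%, 2.11% and 1.96% in RT heads. Here *elav* was lower in every Dicer2 25C library than in any RT library, a log2 difference of -0.19 (exact permutation test, two-sided, p = 0.1, adjusted 0.2). *fne* amounted to 2.53%, 2.69% and 2.86% in Dicer2 25C heads and 2.59%, 2.62% and 2.67% in RT heads, and *Rbp9* to 8.16%, 8.20% and 9.93% in Dicer2 25C heads and 7.94%, 8.68% and 8.80% in RT heads. For both, the groups overlapped and the log2 differences were 0.04 (exact permutation p = 0.6 and 0.8). Without replicate 3 of Dicer2 25C heads these differences turned to -0.0079 for *fne* and -0.049 for *Rbp9*, and without replicate 1 of RT heads that of *Rbp9* was -0.0028. Against the summed glial genes in place of the neuron list, the direction of *elav* turned, with a log2 difference of 0.42 and overlapping groups (exact permutation p = 0.3). On that list the differences were 0.65 for *fne* and 0.65 for *Rbp9*, with no overlap between the groups (exact permutation p = 0.1 for each, the smallest possible), while the glial sum itself was lower in every Dicer2 25C library than in any RT library. That sum is weighted to its most abundant gene, the glutamine synthetase gene *Gs2*.

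**Figure D4:**
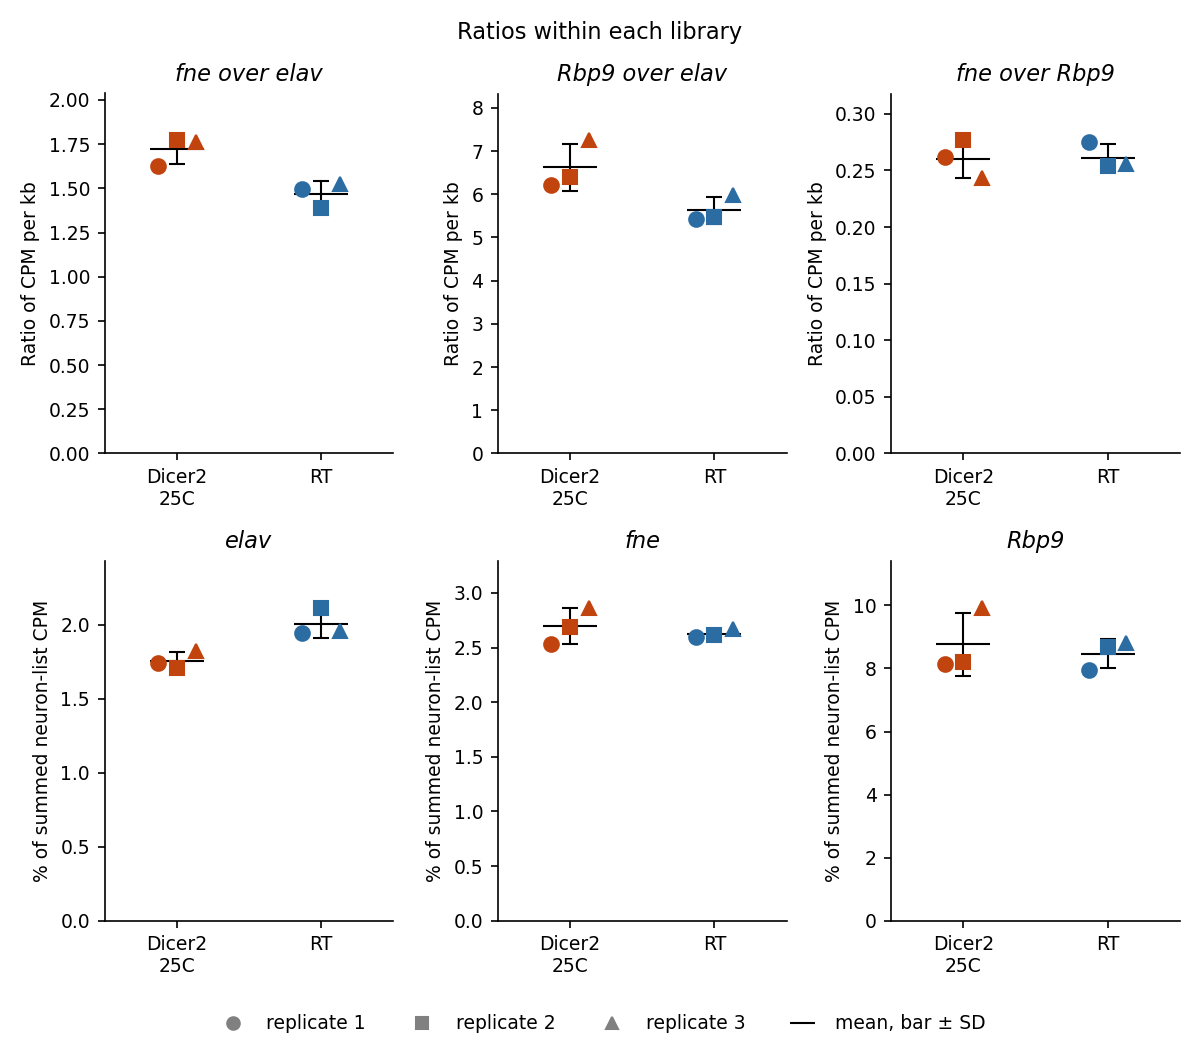
Top row, ratios between members in each library in CPM per kb of exon, and bottom row, each member as a percent of the summed CPM of the neuron list, with the mean ± SD (n = 3). The ratios of *fne* and *Rbp9* to *elav* are higher in every Dicer2 25C library, *elav* is lower there as a percent of the neuron list, and the other panels overlap.

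Within the neuron list, 10 of 11 genes had a positive log2 fold change and the median was 0.15, against 0.004 over all genes tested. None of the 11 passed the quasi-likelihood test in edgeR, with 4 at an unadjusted p under 0.05, 4 called by DESeq2 and 2 by the likelihood ratio test, beside 30.7%, 18.6% and 13.4% of all genes tested by the same rules. The most abundant were *cpx*, a regulator of vesicle fusion, at 2293 ± 498 CPM in Dicer2 25C heads and 1571 ± 42.8 CPM in RT heads (log2 fold change 0.55, adjusted p = 0.089), the synaptic vesicle SNARE gene *nSyb*, at 1600 ± 155 in Dicer2 25C heads and 1249 ± 31.7 CPM in RT heads (0.36, adjusted p = 0.082), and the calcium sensor gene *Syt1*, at 1385 ± 258 in Dicer2 25C heads and 1250.4 ± 37.2 CPM in RT heads (0.15, adjusted p = 0.55; SD, n = 3 each). The log2 fold changes of *elav* (0.10), *fne* (0.32) and *Rbp9* (0.32) were thus all within the range of the list, from -0.14 to 0.56. A sum of CPM gives the most weight to its most abundant genes. The lower percent of *elav* in Dicer2 25C heads therefore need not hold against each gene of the list.

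Heads hold other tissues than neurons, and in bulk RNA fewer cells of a type and less RNA per cell cannot be told apart. The 8 glial genes summed to 1996 to 2408 CPM in Dicer2 25C heads and 2426 to 2856 CPM in RT heads, and the 6 photoreceptor genes to 62382 to 77412 CPM in Dicer2 25C heads and 53648 to 55206 CPM in RT heads. *repo*, the defining gene of glia, was at 68.5 ± 7.94 CPM in Dicer2 25C heads and 68.8 ± 7.37 CPM in RT heads. The glial and photoreceptor sums did not overlap between the groups, though the glial ranges were separated only by 2408 and 2426 CPM. Each sum is weighted to its most abundant gene, *Gs2* for glia and *ninaE* for photoreceptors, and does not stand for every gene of its list. For 18% of all genes tested, all Dicer2 25C libraries were above all RT libraries, and the share with the opposite order was not determined. None of the glial or photoreceptor genes passed the quasi-likelihood test in edgeR, although 3 glial genes and 0 photoreceptor genes had an unadjusted p under 0.05, DESeq2 called 2 and 1, and the likelihood ratio test 1 and 0. The shares over all genes tested were 30.7% at an unadjusted p under 0.05, 18.6% by DESeq2 and 13.4% by the likelihood ratio test. Of the 8 glial genes 1 had a positive log2 fold change, the blood-brain barrier transporter gene *Mdr65* (0.27, adjusted p = 0.067 by quasi-likelihood in edgeR), and all 6 photoreceptor genes did. *Gs2*, a glutamine synthetase of glia, was at 1051 ± 190 CPM in Dicer2 25C heads and 1515 ± 93.7 CPM in RT heads, the glutamate transporter gene *Eaat1* at 377 ± 7.38 in Dicer2 25C heads and 413 ± 42.7 CPM in RT heads, and the sodium pump subunit gene *nrv2* at 352 ± 23.8 in Dicer2 25C heads and 402 ± 83.5 CPM in RT heads. *ninaE*, the main rhodopsin, was at 43446 ± 8043 CPM in Dicer2 25C heads and 31368 ± 497 CPM in RT heads, the arrestin gene *Arr2* at 14607 ± 1340 in Dicer2 25C heads and 14362 ± 822 CPM in RT heads, and the phototransduction channel gene *trp* at 3831 ± 277 in Dicer2 25C heads and 3599 ± 469 CPM in RT heads (SD, n = 3 each).

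Fat body and yolk genes summed to 16425 to 25981 CPM in Dicer2 25C heads and 34484 to 48107 CPM in RT heads. These sums did not overlap either, and the share of all genes with that order was not determined. Of the 6 genes, 2 fell in Dicer2 25C heads, where 5.28% of all genes tested did. These were the yolk protein gene *Yp3* (log2 fold change -1.32, adjusted p = 0.032 by quasi-likelihood in edgeR) and the lipoprotein gene *apolpp* (-0.61, adjusted p = 0.027), while *Yp1* and *Yp2* had log2 fold changes of -0.89 and -0.65 without passing. The feeding and clock gene *to* was the one with a positive log2 fold change (0.35, adjusted p = 0.42). Muscle genes summed to 6685 to 13973 CPM in Dicer2 25C heads and 6190 to 6993 CPM in RT heads, which overlapped only through replicate 3 of Dicer2 25C heads, since replicates 1 and 2 were at 13973 and 13771 CPM. Of the 6 matched, 1 rose, beside 4.83% of all genes tested, the troponin C gene *TpnC41C* (log2 fold change 1.64, adjusted p = 0.016), and the abundant *Mhc*, *Mlc2* and *Act57B* had log2 fold changes of 0.54, 1.10 and 0.98 without passing. In the ovary list 4 of 6 genes were matched. *orb*, a regulator of translation in the oocyte, was at 37.2 ± 9.6 CPM in Dicer2 25C heads and 26.1 ± 1.27 CPM in RT heads, the oocyte signal gene *grk* at 20.8 ± 1.48 in Dicer2 25C heads and 22.1 ± 1.85 CPM in RT heads, and *osk* and *bam* at 6 counts or fewer in every library. The part of these tissues in the values of the members was not tested.

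Genes known as targets of ELAV were also examined. Of the 12 listed for regulated splicing or neural 3′ end extension, 11 were matched and tested, and 0 passed the quasi-likelihood test in edgeR, with 0 at an unadjusted p under 0.05 and 0 called by DESeq2 or the likelihood ratio test. Of all genes tested, 10.1% passed the quasi-likelihood test, 30.7% had an unadjusted p under 0.05, 18.6% were called by DESeq2 and 13.4% by the likelihood ratio test. With a share of 10.1%, 0 of 11 by quasi-likelihood is not a result about these genes. Their median log2 fold change was 0.002, 6 of the 11 were positive, and the values ran from -0.31 to 0.27. The most abundant were *arm*, the fly beta-catenin, at 538 ± 22.5 CPM in Dicer2 25C heads and 506 ± 17.1 CPM in RT heads, *shep*, itself an RNA-binding protein gene, at 518 ± 94.5 in Dicer2 25C heads and 481 ± 15.4 CPM in RT heads, and the hnRNP gene *Hrb27C* at 392 ± 48.0 in Dicer2 25C heads and 430 ± 13.7 CPM in RT heads (SD, n = 3 each). Gene counts measure the total RNA of a target, not which splice form or 3′ end it has.

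Other RNA-binding protein genes with roles in neurons were taken from a second list. Of 16 tested, 0 passed the quasi-likelihood test in edgeR, with 1 at an unadjusted p under 0.05 and 0 called by DESeq2 or the likelihood ratio test, beside shares over all genes tested of 10.1% by quasi-likelihood, 30.7% at an unadjusted p, 18.6% by DESeq2 and 13.4% by the likelihood ratio test. In this list 12 genes had a positive log2 fold change, with a median of 0.10. *ps*, the fly Nova homolog, was at 692 ± 139 CPM in Dicer2 25C heads and 736 ± 42.3 CPM in RT heads, the KH domain protein gene *mub* at 589 ± 87.1 in Dicer2 25C heads and 529 ± 93.8 CPM in RT heads, and the splicing factor gene *mbl* at 328 ± 85.8 in Dicer2 25C heads and 293 ± 23.0 CPM in RT heads. *Sxl*, the master gene of female sex determination, and its sister gene *ssx* have RNA recognition motifs close to those of ELAV. *Sxl* was at 305 ± 38.8 CPM in Dicer2 25C heads and 298 ± 38.2 CPM in RT heads, and *ssx* at 169.7 ± 16.0 in Dicer2 25C heads and 172 ± 1.57 CPM in RT heads (SD, n = 3 each). Their log2 fold changes were 0.04 and -0.02, with adjusted p of 0.88 for both by quasi-likelihood in edgeR, 0 at an unadjusted p under 0.05 and 0 called by DESeq2 or the likelihood ratio test.

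Across the 6 libraries, the log2 CPM of *fne* and *Rbp9* followed each other with a Pearson r of 0.94. *elav* followed *fne* at 0.77 and *Rbp9* at 0.65. These are descriptions over 6 libraries that share their groups and scaling, and by likeness to *fne* the rank of *Rbp9* was 388 among the 10186 other genes, so many genes had a closer profile. The genes most like *elav* were *CG18265* (r = 0.999), *chinmo* (0.998), a zinc finger gene of neuronal timing, and *unc-13-4A* (0.996). Those most like *fne* were the calcium-binding protein gene *Cbp53E* (0.999), the cuticle protein gene *Cpr100A* (0.998) and the chitinase gene *Cht7* (0.997). Those most like *Rbp9* were *CG14662* (0.997), FBgn0029128 (0.997), whose symbol was not matched, and the tetraspanin gene *Tsp66E* (0.996). *Cbp53E* was at 320.3 ± 58.4 CPM in Dicer2 25C heads and 234 ± 7.81 CPM in RT heads, and *Tsp66E* at 95.8 ± 12.4 in Dicer2 25C heads and 74.7 ± 2.29 CPM in RT heads (SD, n = 3 each).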

How the data were processed

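RNA of fly heads was sequenced as single-end reads from stranded libraries of polyA RNA. The authors trimmed reads with Trimmomatic (version 0.36), aligned them with TopHat2 to the fly genome and transcriptome and deposited raw HTSeq (version 0.6.1) counts of reads per gene, without normalization or pooling. The 5 lines for reads on no gene were left out of totals and tests. Of 17559 count rows, 17253 matched the BDGP6.54 annotation, used for names, lengths and coordinates. It is another release than the authors'. Groups came from the sample labels.

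The Dicer2 25C control was compared with the RT control in edgeR (version 4.0.16, under R 4.3.3), fitting the counts by quasi-likelihood with TMM scaling and the default expression filter, no block, and Benjamini-Hochberg adjustment over 10187 genes. The standard error was derived from the log2 fold change and its F statistic. The test was tried on simulated counts with known changes. Nothing states how the replicate pools were bred, so p-values measure the spread between these pools. Ratios within libraries were tested with exact permutation tests (SciPy 1.17.1). Likeness of profiles was Pearson's r of log2 CPM with 0.5 added.

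The alternatives were other scalings and filters, DESeq2 (version 1.42.0), edgeR's likelihood ratio and robust fits, a replicate block, thinning, each library left out, the glial list and the longest transcript. The shortest transcript was added after seeing the annotation. Named genes were the members, *Dcr-2*, genes overlapping a member, the 3 genes most like each member, and in each list the 3 most abundant and all that passed the test. *Hsp26*, *repo*, *Mdr65*, *to* and *bam* were named after their values were seen. The members and lists were chosen with earlier results of these data known.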

Additional observations from a re-analysis of the deposited data

How the results depend on the processing

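The log2 fold changes of *fne* and *Rbp9* were positive under all 16 alternatives and that of *elav* under 15. With library totals in place of TMM, *fne* (0.41, adjusted p = 0.039) and *Rbp9* (0.42, adjusted p = 0.035) passed the test. That scaling moved the median of all genes to 0.10, and 1432 genes passed the adjusted p. *Rbp9* also passed with DESeq2 (0.32, adjusted p = 0.014). With 1 library left out, log2 fold changes ran from -0.016 to 0.22 for *elav*, 0.25 to 0.43 for *fne* and 0.25 to 0.39 for *Rbp9*, with edgeR adjusted p from 0.096 to 0.95, 0.010 to 0.31 and 0.021 to 0.24. The 287 genes past both thresholds became 495 in the likelihood ratio test and 437 with DESeq2. The 1030 genes past the adjusted p alone became 1889 with DESeq2. With 1 library left out, the counts ran from 33 to 438 and from 44 to 1944. Without replicates 1, 2 and 3 of Dicer2 25C heads they were 79, 33 and 438 and 183, 44 and 1944. Without replicates 1, 2 and 3 of RT heads they were 260, 96 and 54 and 1142, 160 and 88.

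A replicate block gave counts of 91 and 172 and log2 fold changes of 0.08 (*elav*), 0.31 (*fne*) and 0.32 (*Rbp9*), with adjusted p of 0.64, 0.15 and 0.19. Same-numbered libraries did not deviate together (correlations -0.11, -0.013 and -0.0013) and 0 of 6 correlated best with their own number, so the block was not used. With 1 library left out, the log2 differences in ratio between the groups ran from 0.19 to 0.27 for *fne* to *elav*, 0.17 to 0.28 for *Rbp9* to *elav* and -0.052 to 0.042 for *fne* to *Rbp9*, and, against the neuron list, from -0.22 to -0.15 for *elav*, -0.0079 to 0.081 for *fne* and -0.049 to 0.092 for *Rbp9*. Against the glial list *elav* was higher in Dicer2 25C heads by 0.42 (exact permutation p = 0.3), and *fne* and *Rbp9* were each higher by 0.65 (exact permutation p = 0.1). Per kb of shortest transcript, the log2 level of *fne* over *elav* was -0.31, against 0.67 per kb of all exons. The cause of these changes was not tested. At least 3425 reads lay behind each member's value, so counting error limits these results less than the spread between 3 pools.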
